A study of Mus musculus with 14 samples.

Results

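Cultures of the mouse lung adenocarcinoma cell line TR.1 that had been grown out in the RET inhibitor selpercatinib were compared with parental cultures of the same line by RNA sequencing. The comparison was taken from the deposited gene counts of the resistant cultures and rests on 4 of the 14 libraries of the series, 2 from selpercatinib-resistant cultures (500 nM) and 2 from parental cultures. Another 2 libraries, from cultures resistant to the RET inhibitor pralsetinib (200 and 400 nM), entered the same statistical fit and a second comparison. The remaining 8 libraries, from acute treatment, were not used here.

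All cultures carry the Trim24-RET fusion and were kept in full growth medium on 10 cm dishes. The resistant cultures started in 30 nM inhibitor, which was raised over about 60 days. The parental cultures were passaged over that time in 0.1% DMSO as a passage control. By the protocol the final concentration was 400 to 500 nM, yet a pralsetinib-resistant library is labelled 200 nM. Whether the libraries of a group stem from independent outgrowths is not labelled. The p-values therefore reflect only how far these libraries differ, and that spread may be technical. The spread was estimated over all 6 libraries of the fit. It therefore also holds the difference between the pralsetinib-resistant libraries, which are labelled 200 and 400 nM. The labels' batch field reads "resistant" for all resistant and "parental" for both DMSO libraries, so batch and group cannot be told apart. All cultures come from a single line, and no drug-free passage of the resistant cultures was analysed here. "Resistant" without a drug name means selpercatinib-resistant, and paired values are replicate 1 and then replicate 2.

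RET is a receptor tyrosine kinase that normally binds ligands of the GDNF family together with a GFRA co-receptor and signals through RAS and the ERK kinases. In a fusion such as Trim24-RET the kinase domain is joined to a partner that dimerizes, so that it signals without ligand, and selpercatinib and pralsetinib block its ATP site. Carcinoma cells that outlast a kinase inhibitor are known to do so through new mutations in the kinase, through other receptors or RAS, or with a shift away from the epithelial state, in which cell junctions are lost and genes of fibroblasts and matrix are switched on. Gene counts bear on receptors and cell state and carry no information on mutations.

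Of 55415 rows of the table, 14389 were tested, those at a CPM (a gene's count scaled to the library total) of 1 or more in at least 2 of the 6 libraries of the 3 groups. Of these 14145 reached that level in at least 2 of the 4 libraries compared, and 244 passed only with the pralsetinib-resistant libraries. Library totals ran from 60.7e6 to 81.9e6 counts, at which 3 counts correspond to between 0.0366 and 0.0494 CPM. Levels are CPM scaled by the trimmed mean of M-values (TMM) and are not corrected for gene length, so they are compared between libraries and not between genes. Differences are log2 fold changes, selpercatinib-resistant over parental, with their standard error (SE), from edgeR's quasi-likelihood test. A gene is called higher or lower where its Benjamini-Hochberg adjusted p over all genes tested is under 0.05.

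The resistant cultures differed from parental cultures across most of the transcriptome. edgeR called 10018 of 14389 genes (69.6%), of which 5062 were higher (35.2%) and 4956 lower (34.4%). With a fold change of at least 2 as a further condition, 2217 genes were higher (15.4%) and 1591 lower (11.1%). Scaling by library totals alone moves the median of all genes by 0.14 on the log2 scale and the split to 6148 higher and 3907 lower. Between 19.8 and 20.2% of counts would have to be moved from some genes to others to turn a resistant library into a parental one, against 2.37% between the resistant libraries and 2.15% between the parental libraries. With 1 added to each CPM, 4 genes differed at least 2-fold between the libraries of the resistant pair and none in the parental pair. The added 1 keeps genes near 0 CPM from counting, so differences among low genes are not covered. There were 103 genes at 10 CPM or more in both resistant libraries and under 0.5 CPM in both parental libraries, and 54 genes with the opposite pattern. Among the tested genes 1257 were under 1 CPM in both parental libraries and 595 in both resistant libraries. Such genes passed the filter through libraries of the other groups, so a list that holds many of them tends to lean that way. The filter does not fix a call, since a gene can pass through the pralsetinib-resistant libraries. The libraries of the groups do not overlap in 12858 of the 14389 tested genes (89.4%), which include all 10018 called genes and so each of the 456 called genes named here. The shares of all genes that were higher (35.2%) and lower (34.4%) are the background for the counts of each list below.

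**Figure D1:**
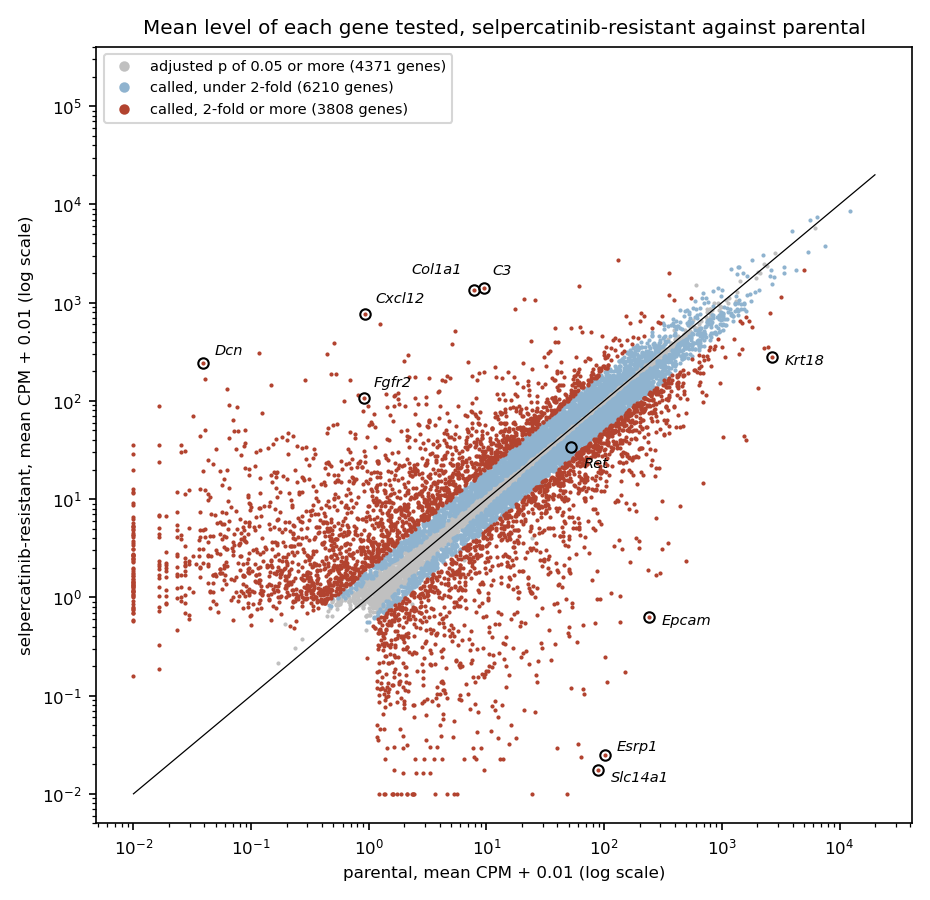
Mean level of each of the 14389 genes tested in selpercatinib-resistant cultures (vertical axis) and in parental cultures (horizontal axis), both as TMM-scaled CPM + 0.01 on log scales, with 1 point per gene and the diagonal of equal levels. The 3808 genes called with at least 2-fold change spread away from the diagonal on both sides, the 6210 called with less lie along it, and 10 genes described in the text are ringed.

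Ret itself stayed expressed. Its level was 35.0 and 33.1 CPM in resistant cultures, against 53.8 and 50.0 CPM in parental cultures, a fall of 0.61 (SE 0.10) at an edgeR adjusted p of 0.000868 by Benjamini-Hochberg. The gene lies on chromosome 6 from 118151745 to 118197718 (mm10), and Trim24, its fusion partner, on the same chromosome from 37870811 to 37966296. Fusion and intact transcripts are counted together. Trim24 was at 65.2 and 61.2 CPM in resistant and 72.5 and 71.2 CPM in parental cultures, with a log2 fold change of -0.18 (SE 0.08) that did not pass the test (edgeR adjusted p = 0.0657).

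Of the ligands and co-receptors of RET, 8 of 11 genes of the list that also holds Ret and Trim24 were tested, of which 1 rose and 5 fell. The gene that rose was Gdnf, which encodes a ligand of RET that binds through the co-receptor GFRA1. It was at 12.8 and 13.8 CPM in resistant cultures, against 1.82 and 2.24 CPM in parental cultures, a log2 fold change of 2.70 (SE 0.20). Gfra1 itself fell by 1.61 (SE 0.10), with 8.64 and 9.36 CPM in resistant and 27.1 and 28.0 CPM in parental cultures. Gfra2, the co-receptor for neurturin, was at 0.285 and 0.560 CPM in resistant and 3.42 and 3.34 CPM in parental cultures. Artn, which encodes the ligand artemin, fell by 3.40 (SE 0.25), and Gdf15, a stress-induced ligand that signals through RET with another co-receptor, fell by 2.50 (SE 0.20). Nrtn, which encodes neurturin, was low in all 4 libraries, at 1.57 and 1.11 CPM in resistant and 1.89 and 1.41 CPM in parental cultures, and did not pass the test. Ligand and co-receptor thus moved in opposite directions for the GDNF pair.

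The transcripts that ERK signaling induces were low in cultures growing in the drug. All 19 genes of the ERK output list were tested, and 18 were lower and 1 higher, with a median log2 fold change of -2.45. For the ERK phosphatase Dusp6, resistant cultures had 47.3 and 46.3 CPM, against 345 and 361 CPM in parental cultures. Dusp4 and Dusp5, which encode phosphatases of the same family that act on ERK in the nucleus, fell by 4.35 (SE 0.13) and 4.38 (SE 0.19). Among the Sprouty genes, which restrain receptor signaling, the members moved in both directions. Spry4 was at 2.22 and 2.24 CPM in resistant and 37.7 and 39.8 CPM in parental cultures and Spry2 fell by 2.76 (SE 0.08), whereas Spry1 rose by 1.54 (SE 0.13), with 37.7 and 33.8 CPM in resistant and 13.3 and 11.3 CPM in parental cultures.

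Transcription factors of the ERK output list fell as well. Etv4 and Etv5, members of the ETS family, fell by 1.84 (SE 0.11) and 3.40 (SE 0.08), and Fosl1, a subunit of AP-1, fell by 2.69 (SE 0.09). Myc, a driver of growth, was at 153 and 156 CPM in resistant cultures, against 633 and 669.7 CPM in parental cultures. Ccnd1, which encodes cyclin D1, had 148 and 158 CPM in resistant cultures and 960.5 and 962 CPM in parental cultures, a fall of 2.65 (SE 0.11). Immediate early genes, a list kept to show effects of handling, moved with this list. Of 15 tested genes 13 were lower and 2 higher, with Egr3, a zinc finger factor, at 1.29 and 1.23 CPM in resistant and 19.5 and 17.0 CPM in parental cultures and Nr4a1, a nuclear receptor, at 5.35 and 4.90 CPM in resistant and 36.0 and 33.7 CPM in parental cultures. Several immediate early genes are themselves induced by ERK, so handling and ERK output cannot be told apart here.

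The components of the RAS-ERK cascade moved far less than its output genes. Of 25 tested genes 5 were higher and 11 lower, 2 of them at least 2-fold in each direction, with a median of -0.12. Nras fell by 0.51 (SE 0.07), while Hras, at 56.7 and 54.8 CPM in resistant and 50.2 and 53.1 CPM in parental cultures, did not pass the test. Braf, the kinase that activates MEK, rose by 0.37 (SE 0.08), a call that is lost without parental replicate 1, at 0.33. The larger changes were in the scaffold Ksr1, which holds RAF, MEK and ERK together and rose by 1.28 (SE 0.08), the exchange factor Sos2, which loads RAS with GTP and fell by 1.60 (SE 0.09), and Rasa1, which stimulates GTP hydrolysis by RAS and fell by 1.60 (SE 0.09). Rasa1 was at 54.3 and 52.2 CPM in resistant and 158 and 166 CPM in parental cultures.

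Other receptor tyrosine kinases moved in both directions. Of 36 genes 27 were tested, and 13 were higher and 10 lower, with 5 of the tested genes under 1 CPM in both parental libraries. The fibroblast growth factor receptor gene Fgfr2 was at 106 and 108 CPM in resistant cultures, against 0.860 and 0.929 CPM in parental cultures, a log2 fold change of 6.90 (SE 0.15) at an edgeR adjusted p of 6.47e-08 by Benjamini-Hochberg. Fgfr3 was at 18.1 and 18.2 CPM in resistant and 0.316 and 0.570 CPM in parental cultures, whereas Fgfr1 fell by 0.99 (SE 0.06). Pdgfrb, a receptor typical of pericytes and fibroblasts, had 70.7 and 58.2 CPM in resistant cultures and 0.0526 and 0.0663 CPM in parental cultures. Erbb4, a neuregulin receptor, had no count in parental cultures and 2.46 and 3.00 CPM in resistant cultures, at least 121.5-fold higher against a floor of 3 counts over both parental libraries. Such bounds cover counting error only.

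Receptors that are often named as bypass routes moved both ways. Met, the receptor for hepatocyte growth factor, was at 319.5 and 339 CPM in resistant cultures, against 164 and 169 CPM in parental cultures, a rise of 0.98 (SE 0.14). Egfr fell by 0.41 (SE 0.06), with 55.7 and 57.2 CPM in resistant and 74.0 and 76.1 CPM in parental cultures, and Erbb3, its kinase-deficient partner, fell by 3.43 (SE 0.09), with 4.86 and 5.25 CPM in resistant and 54.5 and 54.6 CPM in parental cultures. Erbb2 rose by 0.31 (SE 0.09) and Igf1r fell by 0.19 (SE 0.07), but both calls can be lost when 1 library is left out. Such a fit has only 1 library in a group. Erbb2 loses its call without any 1 of the 4 libraries, at 0.28 to 0.32, and Igf1r loses its call without parental replicate 1, at -0.16, or either resistant library, at -0.14 and -0.23. Axl, a receptor often raised in mesenchymal carcinoma cells, fell by 0.59 (SE 0.06), with 676 and 690.3 CPM in resistant and 1014 and 1044 CPM in parental cultures. The collagen receptor gene Ddr1 rose by 0.76 (SE 0.06) and Ror1, a receptor for Wnt5a, by 2.63 (SE 0.18). Of the Eph receptors and their ephrin ligands, which act between neighbouring cells, 17 were tested, with 5 higher and 8 lower. Epha1 fell by 4.33 (SE 0.18) and Epha2 by 2.45 (SE 0.07), while Ephb6, which lacks kinase activity, rose by 2.81 (SE 0.15) and Epha7 by 2.38 (SE 0.18).

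Growth factor genes moved in both directions. Of 34 genes 30 were tested, 14 higher and 12 lower, and 7 of the tested genes were under 1 CPM in both parental libraries. The 5 ligands of the EGF receptor named here all fell. Areg, which encodes amphiregulin, was at 6.39 and 6.55 CPM in resistant cultures, against 259 and 287 CPM in parental cultures. Btc, which encodes betacellulin, fell by 4.79 (SE 0.19), Ereg by 2.38 (SE 0.18), Tgfa by 2.01 (SE 0.07) and Hbegf by 1.86 (SE 0.07). Nrg1, a neuregulin that binds ERBB3 and ERBB4, rose instead, with 86.1 and 84.7 CPM in resistant and 15.8 and 15.6 CPM in parental cultures.

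Ligands that mesenchymal cells are known to make were among those that rose. Hgf, the ligand of MET, was at 9.31 and 8.39 CPM in resistant cultures, against 0.0702 and 0.106 CPM in parental cultures, and Igf2, a fetal growth factor, at 29.3 and 20.7 CPM in resistant cultures, against 0.0526 and 0.0133 CPM in parental cultures. Angpt1, which encodes the vessel-stabilizing ligand angiopoietin 1, had no count in parental cultures and 9.30 and 8.10 CPM in resistant cultures, at least 382-fold higher. Fgf10, a mesenchymal ligand of FGFR2, was at 0.765 and 1.21 CPM in resistant and 0.0175 and 0.0133 CPM in parental cultures, a ratio of 66.5 (95% counting interval 18.1 to 554), since parental cultures held 2 counts. Csf1, the growth factor of macrophages, rose by 2.25 (SE 0.10). Vegfa, the main growth factor of blood vessels, fell by 1.44 (SE 0.09), while Vegfc and Vegfd, which act on lymphatic vessels, rose by 0.90 (SE 0.09) and 2.13 (SE 0.24). Igf1 did not pass the test, at 8.02 and 7.87 CPM in resistant and 8.98 and 9.46 CPM in parental cultures.

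Genes of epithelial junctions and of the epithelial cell surface were mostly lower. Epithelial cells are held together by adherens junctions, tight junctions and desmosomes, and the loss of these is the usual sign of a shift towards a mesenchymal state. Of 31 genes 30 were tested, and 24 were lower (background 34.4%) and 3 higher (background 35.2%), with a median of -4.07 against 0.00 over all genes. Of the 30, 9 were under 1 CPM in both resistant libraries, and the filter favours a fall in such genes. The summed level of the list was 1498 and 1427 CPM in resistant cultures, against 3911 and 4000.4 CPM in parental cultures. In bulk libraries such as these, fewer cells of a type and less RNA per cell cannot be told apart.

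Among the tight junction genes, 3 claudin genes fell to a few CPM or less. Cldn4 was at 1.57 and 1.81 CPM in resistant cultures, against 263 and 285 CPM in parental cultures, Cldn7 at 0.525 and 0.560 CPM in resistant cultures, against 82.0 and 85.3 CPM in parental cultures and Cldn3 at 3.34 and 3.07 CPM in resistant cultures, against 192 and 199.8 CPM in parental cultures. Claudins seal the space between epithelial cells. Epcam, an adhesion molecule of simple epithelia, was at 0.720 and 0.521 CPM in resistant cultures. F11r, which encodes the junctional adhesion molecule JAM-A, did not pass the test, at 265 and 244 CPM in resistant and 218 and 229.6 CPM in parental cultures and an edgeR adjusted p of 0.218 by Benjamini-Hochberg. Of the adherens and desmosome genes, Cdh1, which encodes E-cadherin, was lower by 1.83 (SE 0.38) and kept 247 and 209.9 CPM in resistant cultures, against 811 and 814 CPM in parental cultures. Pkp3, a desmosomal plaque gene, fell by 6.21 (SE 0.20) and Perp, a desmosome component, by 2.26 (SE 0.13).

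The surface protease St14, which encodes matriptase, was at 0.180 and 0.293 CPM in resistant cultures, against 101 and 101 CPM in parental cultures. Its inhibitors Spint1 and Spint2 fell by 4.33 (SE 0.12) and 2.97 (SE 0.10). Ap1m2, a subunit of the epithelial AP-1B sorting adaptor, was at 0.0150 and 0.0382 CPM in resistant and 18.2 and 17.8 CPM in parental cultures, and Rab25, a small GTPase of apical recycling, fell by 7.37 (SE 0.20). Cd24a, a surface glycoprotein, rose by 0.56 (SE 0.10), with 594 and 568 CPM in resistant and 387 and 400.1 CPM in parental cultures. Keratins, the intermediate filaments of epithelial cells, fell in 6 of 7 tested cases of 11 listed, with 1 of the 7 under 1 CPM in both resistant libraries. Krt8 was at 369 and 338 CPM in resistant cultures, against 2465 and 2448 CPM in parental cultures and Krt18, its partner, at 288 and 276 CPM in resistant cultures, against 2656 and 2711 CPM in parental cultures. Krt7 fell by 5.14 (SE 0.30) and Krt19 by 2.21 (SE 0.25), and Krt20 did not pass the test, at 2.85 and 1.90 CPM in resistant and 6.53 and 6.37 CPM in parental cultures. In a fit to the 4 libraries compared, 6 keratins were called at least 2-fold lower, against 5 in the main fit, and the added one is Krt20. The simple keratins thus stayed above 250 CPM in both resistant libraries for Krt8, Krt18 and Krt19, while Epcam and the claudins fell to a few CPM or below.

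Regulators of the epithelial program were split. Of 15 genes 11 were tested, 7 lower and 4 higher, with 4 of the 11 under 1 CPM in both resistant libraries and 1 in both parental libraries. Esrp1, a splicing factor that keeps epithelial isoforms such as the IIIb form of FGFR2, had 2 counts over both resistant libraries and 101 and 100.2 CPM in parental cultures, a ratio of 7319.6 in favour of parental cultures (95% counting interval 2026 to 60447). Its relative Esrp2 fell by 1.68 (SE 0.25), with 14.6 and 13.2 CPM in resistant and 45.2 and 43.8 CPM in parental cultures. Grhl2, a transcription factor of epithelial junction genes, was at 0.495 and 0.585 CPM in resistant cultures, against 21.5 and 21.1 CPM in parental cultures. Ovol2, a repressor of mesenchymal genes, had no count in resistant cultures and 1.96 and 1.47 CPM in parental cultures, at least 81.6-fold lower. Klf5 fell by 3.11 (SE 0.08). Ehf and Tfcp2l1, an ETS and a grainyhead-like factor of epithelia, rose instead, by 2.55 (SE 0.12) and 3.12 (SE 0.10), and Trp63, the p63 factor of basal cells, rose to 1.92 and 1.36 CPM, against 0.0877 and 0.0663 CPM in parental cultures.

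The promoters of the epithelial junction genes were searched for the E-box that SNAI and ZEB repressors are known to bind, since members of the list fell together. The motif was CACCTG, read on both strands in the 250 bases before each start site in the RefSeq promoter table (GRCm38.p6). It was present in 13 of 25 promoters of the list (52.0%), which belong to 19 matched genes, 12 of them with at least 1 promoter that holds it, against 5657 of 32851 of all promoters of that length (17.2%). Shown are the promoters of the pair of list members with the lowest p among those that hold the motif, Cldn7 (chr11:69965171-69965420, plus strand) and Cldn4 (chr5:134946935-134947184, minus strand), and of Cldn3 (chr5:134985964-134986213, plus strand), which does not hold it. Each reads 5′ to 3′ on the strand of its gene, with the motif or its reverse complement in capitals.
Cldn7: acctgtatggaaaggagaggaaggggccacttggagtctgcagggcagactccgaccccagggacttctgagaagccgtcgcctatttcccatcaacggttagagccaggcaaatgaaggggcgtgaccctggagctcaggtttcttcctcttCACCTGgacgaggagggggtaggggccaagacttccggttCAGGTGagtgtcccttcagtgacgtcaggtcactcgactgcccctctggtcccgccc
Cldn4: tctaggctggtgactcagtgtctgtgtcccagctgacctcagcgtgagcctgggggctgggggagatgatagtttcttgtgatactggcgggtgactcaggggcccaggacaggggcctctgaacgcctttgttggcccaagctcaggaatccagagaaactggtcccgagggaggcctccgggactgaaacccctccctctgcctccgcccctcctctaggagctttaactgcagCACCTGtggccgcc
Cldn3: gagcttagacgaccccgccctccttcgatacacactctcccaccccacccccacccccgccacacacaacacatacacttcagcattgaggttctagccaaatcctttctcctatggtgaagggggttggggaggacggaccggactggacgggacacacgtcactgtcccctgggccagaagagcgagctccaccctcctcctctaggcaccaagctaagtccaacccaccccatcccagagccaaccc
The Cldn7 promoter has the motif starting 97 bases before the start site and its reverse complement 57 bases before it, and Cldn4 has it 14 bases before the start. Cldn3 fell by 5.94 (SE 0.15) with no such letters in this window, while F11r holds the motif and did not pass the test. The share of the list was not split by direction of change. A match is a description of the letters and shows no bound factor.

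**Figure D2:**
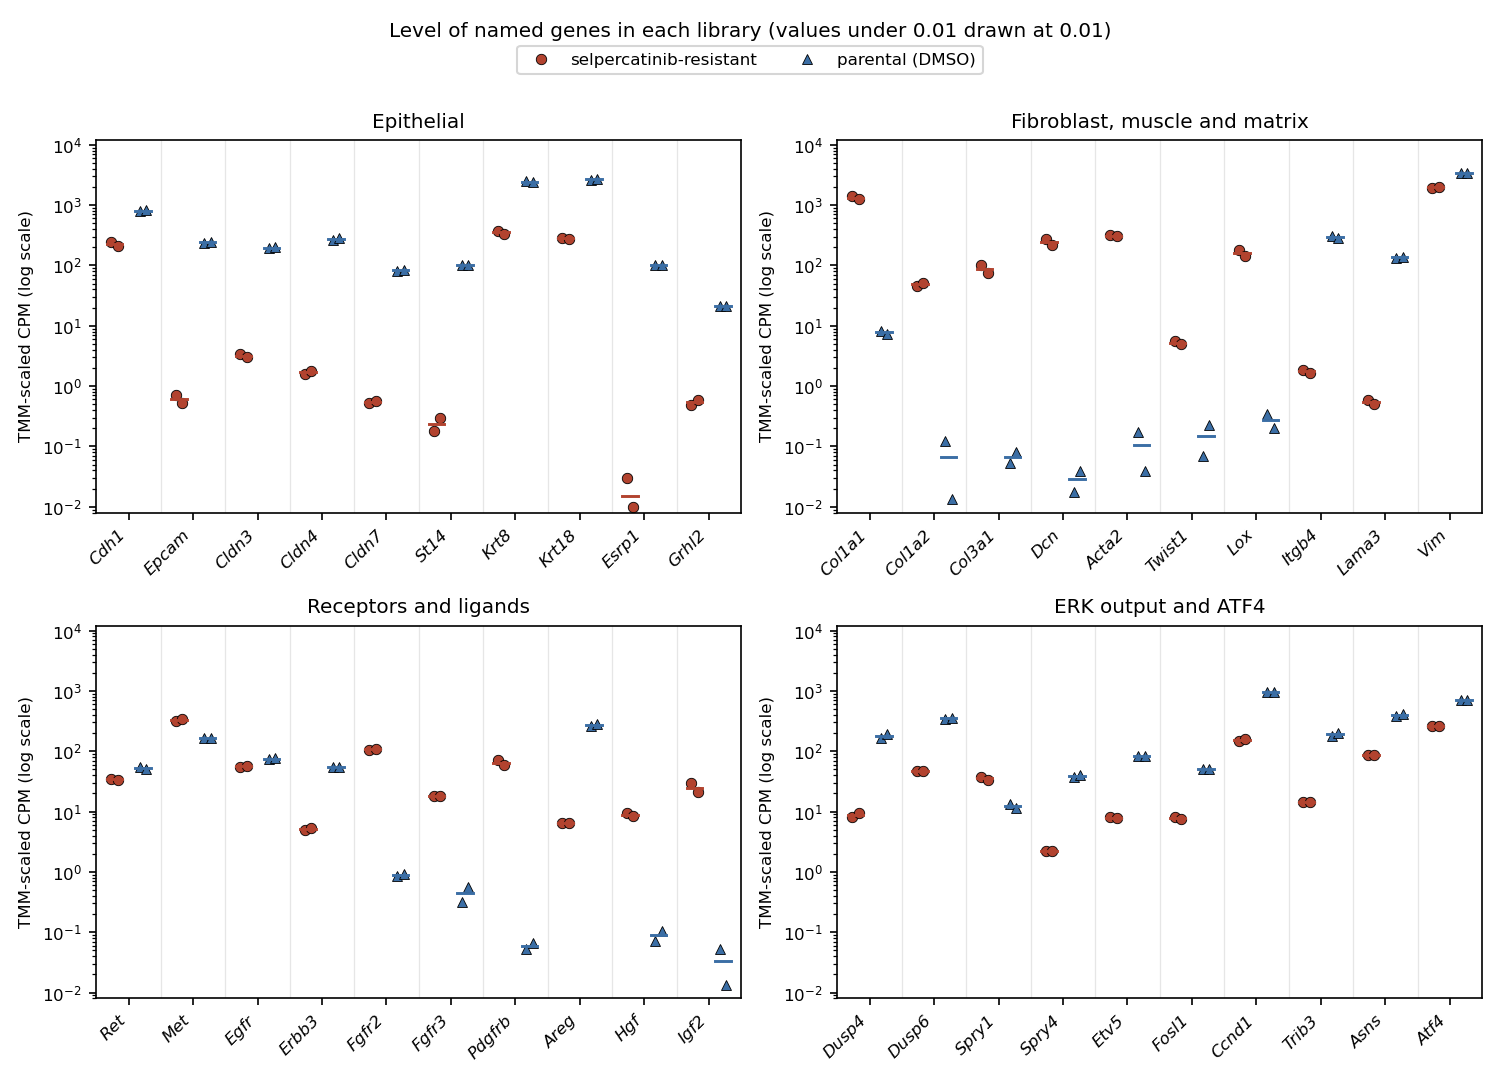
Level of 40 genes in each library as TMM-scaled CPM on a log scale, in 4 panels of 10 genes, with 2 selpercatinib-resistant libraries (circles) left of 2 parental libraries (triangles) for each gene, and bars at the group means. Epcam, the claudins, St14 and Esrp1 sit far below their parental levels, Dcn, Col3a1, Acta2 and Pdgfrb far above them, and Ret, Egfr and Vim differ by little.

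Transcription factors of lung and gut lineages changed without a common direction. Of 22 genes 16 were tested, 6 higher and 5 lower, near the shares over all genes (35.2 and 34.4%). Nkx2-1, the master regulator of lung epithelium, was at 8.28 and 6.61 CPM in resistant and 1.84 and 1.86 CPM in parental cultures. This rise of 2.01 (SE 0.51) loses its call without either parental library, at 1.99 in both cases. Sox9, a factor of the distal lung bud, fell by 3.30 (SE 0.10), with 17.9 and 17.6 CPM in resistant and 175 and 174 CPM in parental cultures. Foxa1 fell by 0.68 (SE 0.13), and Foxj1, the regulator of motile cilia, rose by 2.70 (SE 0.17). Hnf4a, a factor of gut and liver, was at 25.6 and 18.7 CPM in resistant and 67.3 and 61.6 CPM in parental cultures, and its call at an edgeR adjusted p of 0.0482 is lost without any 1 of the 4 libraries, at -1.33 to -1.78. Sox2 and Gata6 did not pass the test.

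Most markers of differentiated lung epithelium did not pass the filter. Of 20 markers 7 were tested, and the other 13 were under 1 CPM in all libraries, including Sftpc, the surfactant gene of alveolar type 2 cells, and Sftpb. Of those tested, Lcn2, which encodes the secreted lipocalin 2, was at 1115 and 1051 CPM in resistant cultures, against 22.6 and 19.4 CPM in parental cultures. Slc34a2, a phosphate transporter of type 2 cells, was at 1.50 and 1.48 CPM in resistant and 0.0702 and 0.0531 CPM in parental cultures. Pdpn, a surface marker of type 1 cells, was at 2.04 and 1.90 CPM in resistant and 0.105 and 0.0663 CPM in parental cultures. Cav1, which encodes caveolin 1, fell by 1.66 (SE 0.08). The labelled lung origin is thus not visible in surfactant genes, in either group.

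Among the classical inducers of epithelial-mesenchymal transition, Snai1, Snai2, Zeb1 and Zeb2 moved little compared with the junction genes, while Twist1 rose strongly from a low level. Of 15 genes 14 were tested, 7 higher and 3 lower, 2 of them at least 2-fold in each direction, with a median of 0.25. Snai1, a repressor of the E-cadherin gene, did not pass the test, at 9.51 and 10.9 CPM in resistant and 10.7 and 11.3 CPM in parental cultures. Nor did its relative Snai2, at 24.7 and 23.6 CPM in resistant and 24.8 and 29.0 CPM in parental cultures. Zeb1, a repressor of epithelial genes, rose by 0.83 (SE 0.08), with 116 and 114 CPM in resistant and 67.9 and 61.7 CPM in parental cultures. Zeb2 rose by 0.33 (SE 0.10), a call lost without any 1 of the 4 libraries, at 0.28 to 0.34. Twist1, a factor of mesoderm, rose by 5.04 (SE 0.33), with 5.50 and 4.95 CPM in resistant and 0.0702 and 0.225 CPM in parental cultures. Foxc1, Prrx1 and Tcf4, factors of mesenchymal cells, rose by 1.85 (SE 0.19), 0.76 (SE 0.15) and 0.69 (SE 0.07), whereas Foxc2 and Sox4 fell by 5.58 (SE 0.56) and 0.48 (SE 0.09). The ZEB and SNAI genes were already transcribed in parental cultures.

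Common mesenchymal adhesion and filament genes also moved both ways, with 6 of 14 tested genes higher (background 35.2%) and 6 lower (background 34.4%). Vim, which encodes the filament vimentin, was at 1952 and 2033 CPM in resistant cultures, against 3356 and 3457 CPM in parental cultures, a fall of 0.77 (SE 0.06). Fn1, the fibronectin gene, did not pass the test, at 5543 and 6011 CPM in resistant and 6175 and 6182 CPM in parental cultures. Cdh2, which encodes N-cadherin, rose by 1.76 (SE 0.12), with 349 and 355 CPM in resistant and 102 and 106 CPM in parental cultures. Cd44, a hyaluronan receptor, and Nt5e, which makes adenosine, fell by 0.67 (SE 0.10) and 2.87 (SE 0.22), and Nes, the filament nestin, fell by 2.82 (SE 0.10). Sparc, a collagen-binding matrix protein, rose by 2.49 (SE 0.09). Parental cultures thus had high Vim and Fn1 beside high Epcam and claudins.

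Fibroblast markers rose. Of 20 genes 15 were tested, and 14 were higher and none lower, with a median of 5.38. But 5 of the 15 were under 1 CPM in both parental libraries, and the filter favours a rise in such genes. Col1a1, the main fibrillar collagen of connective tissue, was at 1415 and 1252 CPM in resistant cultures, against 8.23 and 7.36 CPM in parental cultures. Col1a2, whose product forms the same triple helix, was at 46.3 and 51.8 CPM in resistant cultures, against 0.123 and 0.0133 CPM in parental cultures. Dcn, which encodes the proteoglycan decorin, was at 270 and 217 CPM, against 0.0175 and 0.0398 CPM in parental cultures, and Postn, which encodes periostin, was at 66.7 and 113 CPM, against 0.0702 and 0.0398 CPM in parental cultures. Postn is among the genes that differ between the resistant libraries. Collagen VI, a beaded filament collagen, showed its genes unequally raised, with 5.38 (SE 0.08) for Col6a1, 6.57 (SE 0.09) for Col6a2 and 0.91 (SE 0.23) for Col6a3. The last is low, at 3.15 and 3.70 CPM in resistant and 1.95 and 1.70 CPM in parental cultures, and its call is lost without parental or resistant replicate 2, at 0.79 and 0.80. Lum, Fap and Thy1, which often mark fibroblasts, stayed under 1 CPM in all 4 libraries and were not tested.

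Contractile and perivascular genes rose as well. Of 15 genes 8 were tested, 7 higher and 1 lower, with 5 of the 8 under 1 CPM in both parental libraries. Acta2, the smooth muscle actin gene, was at 314 and 302 CPM in resistant cultures, against 0.175 and 0.0398 CPM in parental cultures. Myl9, a myosin light chain, had no count in parental cultures and 31.1 and 26.3 CPM in resistant cultures, at least 1259-fold higher. Cnn1, which encodes calponin, had 1 parental count and a ratio of 920.4 (95% counting interval 165 to 36388). Notch3, a receptor of pericytes and vascular muscle, rose by 5.30 (SE 0.10) and Mcam by 3.06 (SE 0.07). Tagln, Myh11 and Myocd, defining genes of differentiated smooth muscle, were under 1 CPM in all 4 libraries.

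Transcription factors of lung mesenchyme, of which 12 of 21 were tested, were higher in 9 cases and lower in 1, and 7 of the 12 were under 1 CPM in both parental libraries. Their levels stayed low. Tbx18 was at 5.80 and 5.80 CPM in resistant and 0.105 and 0.0663 CPM in parental cultures, Ebf1 at 8.92 and 7.70 CPM in resistant and 0.0877 and 0.0929 CPM in parental cultures, and Nkx3-2, a factor of skeletal and gut mesoderm, at 8.22 and 6.42 CPM in resistant and 0 and 0.0531 CPM in parental cultures. Meox1 was at 2.10 and 2.42 CPM in resistant cultures with 2 counts in parental cultures, a ratio of 150.4 (95% counting interval 41.3 to 1247). Foxf1 was lower by 0.66 (SE 0.21), a call lost without any 1 of the 4 libraries, at -0.51 to -0.80. Tbx4, Tbx5 and Tcf21, which define lung mesenchyme, were under 1 CPM throughout and were not tested.

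Markers of other cell types were checked beside these rises. Of 13 endothelial markers 3 were tested, 2 higher and none lower, with 1 of the 3 under 1 CPM in both parental libraries. The summed level of the list was 9.46 and 10.0 CPM in resistant cultures, against 6.42 and 6.27 CPM in parental cultures. Pecam1, Cdh5 and Vwf were under 1 CPM in all 4 libraries. Of 16 leukocyte markers 4 were tested, 1 higher and 2 lower. The summed level of the list was 102 and 99.9 CPM in resistant cultures, against 288 and 284 CPM in parental cultures. Most of that sum is Mrc1, a mannose receptor, at 25.1 and 24.8 CPM in resistant and 258 and 255 CPM in parental cultures, and Cd14, at 71.3 and 69.1 CPM in resistant and 20.2 and 19.8 CPM in parental cultures, while Ptprc, the common leukocyte antigen, and Spi1 were under 1 CPM. Of 8 mesothelial markers 3 were tested, 2 higher and 1 lower. Of these 3, 2 were under 1 CPM in both parental libraries and 1 in both resistant libraries. Wt1 was at 2.31 and 2.12 CPM in resistant and 0.0702 and 0.0929 CPM in parental cultures. The summed level of the list was 107.7 and 109 CPM in resistant cultures, against 508 and 513 CPM in parental cultures, nearly all of it Msln. Upk3b and Lrrn4 were under 1 CPM. Of 13 neural and neuroendocrine markers 4 were tested, with Tubb3, a neuronal tubulin, at 157 and 165 CPM in resistant and 4.16 and 4.17 CPM in parental cultures, Uchl1 higher by 4.00 (SE 0.12) and Insm1, a neuroendocrine factor, lower by 4.25 (SE 0.19). Chga, Syp and Sox10 were under 1 CPM. The lists thus held markers above 1 CPM, such as Mrc1, Cd14, Msln and Tubb3, beside Ptprc, Spi1, Pecam1, Cdh5, Vwf, Upk3b, Lrrn4, Chga, Syp and Sox10, which were under 1 CPM. For fibroblasts, Col1a1 and Dcn were high and Lum, Fap and Thy1 under 1 CPM, and a part of other cells in the rise of matrix genes was not tested.

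Genes of the matrix around the cells moved both ways. Lamb3 and Lama3, laminin chains that anchor epithelia, fell. The fitted change was -2.79 (SE 0.32) for Lamb3 and -7.97 (SE 0.13) for Lama3, with Lama3 at 0.585 and 0.509 CPM in resistant and 134 and 140.1 CPM in parental cultures. In all, 9 of 11 laminin genes were tested, 6 lower and 3 higher. Itgb4, a subunit of the laminin receptor of hemidesmosomes, was at 1.88 and 1.68 CPM in resistant cultures, against 306 and 289 CPM in parental cultures. Itga6, the other subunit, was at 42.0 and 43.5 CPM in resistant cultures, against 1028 and 1035 CPM in parental cultures. Lama4 and Lama1, laminin chains of vessels and of embryonic tissue, rose by 5.51 (SE 0.37) and 4.03 (SE 0.29). Of 18 tested integrin genes of 19, 8 were higher and 7 lower, near the shares over all genes (35.2 and 34.4%), among the higher ones Itga11, a collagen receptor of fibroblasts, by 5.73 (SE 0.44) and Itga9 by 7.16 (SE 0.32). Itga2 and Itga3 fell by 2.68 (SE 0.08) and 1.69 (SE 0.07).

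Genes that cross-link and modify collagen were higher in 13 of 14 tested cases and lower in 1, of 17 listed, with 3 of the 14 under 1 CPM in both parental libraries. Lox, which encodes lysyl oxidase, was at 183 and 141 CPM in resistant cultures, against 0.351 and 0.199 CPM in parental cultures, and Loxl1, Loxl3 and Plod2, a lysyl hydroxylase, rose by 3.96 (SE 0.18), 2.09 (SE 0.12) and 1.55 (SE 0.06). P4ha3, a prolyl hydroxylase subunit, rose by 4.48 (SE 0.17). Eln, the elastin gene, was under 1 CPM in all 4 libraries. Among collagens outside the fibrillar group 7 of 12 tested were higher and 5 lower. Col12a1, which decorates fibrils, was at 368 and 394 CPM in resistant cultures, against 4.96 and 5.21 CPM in parental cultures, Col15a1 rose by 4.56 (SE 0.21) and Col16a1 by 3.18 (SE 0.08), whereas Col7a1, the anchoring fibril of epithelia, fell by 1.85 (SE 0.11) and Col18a1, of basement membranes, by 0.69 (SE 0.07).

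Small proteoglycans and matricellular genes, of which 17 of 20 were tested, were higher in 11 and lower in 3 cases, with 6 of the 17 under 1 CPM in both parental libraries. Fmod, which encodes fibromodulin, was at 102 and 76.7 CPM in resistant cultures with 1 count in parental cultures. Ogn, which encodes osteoglycin, was at 13.9 and 10.8 CPM with 3 parental counts, a ratio of 539.8 (95% counting interval 184 to 2620). Thbs1, which encodes thrombospondin 1, rose by 1.76 (SE 0.09), while Bgn, which encodes biglycan, did not pass the test. Proteases of the matrix were higher in 15 and lower in 5 of 21 tested cases. Mmp3, which encodes stromelysin 1, was at 90.8 and 85.4 CPM in resistant cultures, against 0.877 and 1.06 CPM in parental cultures, Adamts5 and Adamts4, which cut aggrecan, rose by 6.08 (SE 0.12) and 2.43 (SE 0.11), and the inhibitors Timp3 and Timp1 rose by 4.24 (SE 0.09) and 1.33 (SE 0.20). Plau, the urokinase gene, went the other way, at 8.35 and 8.47 CPM in resistant cultures, against 441 and 438 CPM in parental cultures, and Mmp13 fell by 1.67 (SE 0.39).

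In the list of the TGF-beta pathway, which drives matrix genes and epithelial-mesenchymal transition in many cells, all 19 genes were tested, 10 higher and 6 lower. The ligand gene Tgfb2 was at 184 and 165 CPM in resistant cultures, against 2.14 and 2.24 CPM in parental cultures, while Tgfb1 fell by 0.74 (SE 0.14) and Tgfb3 rose by 1.34 (SE 0.14). The receptor genes Tgfbr1 and Tgfbr2 rose by 1.06 (SE 0.09) and 0.65 (SE 0.08) and the co-receptor Tgfbr3 by 4.03 (SE 0.14). Smad3, which carries the signal to the nucleus, fell by 1.21 (SE 0.06). Inhbb, an activin subunit, was at 45.4 and 48.5 CPM in resistant cultures, against 0.140 and 0.252 CPM in parental cultures, whereas the other subunit Inhba fell by 1.22 (SE 0.09). Fstl1, a secreted binding protein, rose by 8.94 (SE 0.13).

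Of 16 tested BMP pathway genes 9 were higher and 3 lower. Bmp7, an epithelial ligand, was at 1.17 and 0.865 CPM in resistant cultures, against 131 and 141 CPM in parental cultures, and Bmp4, a mesenchymal ligand, rose by 2.89 (SE 0.40). The antagonists Nog and Chrd rose by 3.57 (SE 0.25) and 1.98 (SE 0.20), and Id3, a common target of BMP signaling, by 1.09 (SE 0.09). Of 21 tested Wnt pathway genes 14 were higher and 6 lower, and 9 of the 21 were under 1 CPM in both parental libraries. Wnt7a, an epithelial ligand, had 2 counts over both resistant libraries and 62.8 and 64.8 CPM in parental cultures, a ratio of 4648 in favour of parental cultures (95% counting interval 1286 to 38386), and Wnt7b fell by 3.46 (SE 0.20). Wnt4 and Wnt5a rose by 4.35 (SE 0.24) and 1.27 (SE 0.07). The secreted antagonist Sfrp2 was at 175 and 158 CPM in resistant cultures, against 0.0351 and 0.0265 CPM in parental cultures. Axin2, a feedback target of beta-catenin, was at 3.72 and 4.08 CPM in resistant and 0.0526 and 0.0398 CPM in parental cultures.

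In the Notch list 5 of 12 tested genes were higher and 6 lower. The ligands Jag1, Jag2 and Dll1 fell by 2.82 (SE 0.27), 2.65 (SE 0.12) and 3.26 (SE 0.22), and the targets Hes1 and Nrarp fell by 2.10 (SE 0.10) and 3.55 (SE 0.22), whereas Hey1, another target, rose by 0.42 (SE 0.14), a call lost without parental replicate 1, at 0.29, or without either resistant library, at 0.45 and 0.41. Lfng, which modifies Notch receptors, rose by 1.26 (SE 0.09). The receptor gene Notch1 rose by 1.44 (SE 0.13), with 129 and 161 CPM in resistant and 57.0 and 50.1 CPM in parental cultures. Of the named targets, Hes1 and Nrarp thus fell, while the rise of Hey1 was small and its call depends on the libraries used. Targets of YAP and TEAD, factors of cell spreading and stiffness, were higher in 11 and lower in 6 of 19 cases. Amotl2 rose by 1.37 (SE 0.06), Ankrd1 fell by 0.42 (SE 0.07), and Ccn1 and Ccn2, a pair of matricellular targets, moved apart, Ccn1 by 1.70 (SE 0.10) and Ccn2 by -1.44 (SE 0.07).

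Interferon-stimulated genes were higher in resistant cultures in all but 1 of the tested cases. Interferons made by infected or stressed cells act through transcription factors, among them STAT2 and IRF9, that bind the interferon-stimulated response element (ISRE), and their targets block viruses and present antigen. Of 36 genes 33 were tested, and 32 were higher and 1 lower, with a median of 3.80. But 14 of the 33 were under 1 CPM in both parental libraries, and the filter favours a rise in such genes. The summed level of the list was 661 and 630.4 CPM in resistant cultures, against 140.6 and 139.8 CPM in parental cultures. The promoters of the list are shown before its values, since the element lies in 14 of them.

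The ISRE core, the letters GAAA, any 2 bases and GAAA again, read on both strands in the 250 bases before the start sites (RefSeq, GRCm38.p6), was present in 14 of 28 promoters of the list (50.0%), 1 each for 14 of the 25 matched genes. Of all 32851 promoters of that length 978 (2.98%) hold it. Shown are Ifit1 (chr19:34640639-34640888, plus strand) and Isg15 (chr4:156200819-156201068, minus strand), the pair of list members with the lowest p that hold it, and Irf7 (chr7:141266425-141266674, minus strand), which does not, each 5′ to 3′ on the strand of its gene with the core or its reverse complement in capitals.
Ifit1: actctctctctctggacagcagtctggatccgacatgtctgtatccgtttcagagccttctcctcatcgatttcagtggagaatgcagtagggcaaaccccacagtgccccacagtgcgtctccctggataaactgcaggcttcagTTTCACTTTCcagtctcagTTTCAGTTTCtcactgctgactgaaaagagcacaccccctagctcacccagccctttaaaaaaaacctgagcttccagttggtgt
Isg15: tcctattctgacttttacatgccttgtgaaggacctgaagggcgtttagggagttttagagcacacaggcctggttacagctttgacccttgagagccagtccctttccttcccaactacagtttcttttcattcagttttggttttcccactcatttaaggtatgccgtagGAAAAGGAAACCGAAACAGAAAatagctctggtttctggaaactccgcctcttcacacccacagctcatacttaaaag
Irf7: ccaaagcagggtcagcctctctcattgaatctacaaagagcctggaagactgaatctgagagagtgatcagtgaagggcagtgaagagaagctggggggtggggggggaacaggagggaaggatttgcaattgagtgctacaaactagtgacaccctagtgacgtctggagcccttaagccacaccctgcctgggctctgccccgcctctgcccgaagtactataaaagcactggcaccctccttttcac
Ifit1 holds 2 copies of the reverse complement of the core, starting 104 and 85 bases before the start site, and Isg15 holds 3 overlapping cores, starting 78, 72 and 66 bases before it. No core was found in this window of Irf7, which says only that these letters are not there.

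Ifit1, which encodes a protein that binds foreign RNA caps, was at 18.5 and 16.3 CPM in resistant cultures, against 0.105 and 0.172 CPM in parental cultures, a rise of 6.91 (SE 0.24). Its neighbours Ifit2 and Ifit3 rose by 3.82 (SE 0.13) and 6.30 (SE 0.49), and Ifit3 has a near-identical copy, so its value is uncertain. Isg15, a ubiquitin-like modifier, was at 15.3 and 15.4 CPM in resistant cultures, against 0.842 and 1.03 CPM in parental cultures, and Irf7, which amplifies interferon production, at 10.8 and 9.59 CPM in resistant cultures, against 1.26 and 1.02 CPM in parental cultures. Oas1a, which makes the activator of RNase L and lies in a family of similar copies, had no count in parental cultures and 2.34 and 1.32 CPM in resistant cultures, at least 79.0-fold higher. Each of these genes was under 30 CPM in the resistant cultures. Factors that carry the interferon signal rose too, Stat2 by 1.68 (SE 0.07), with 48.4 and 49.9 CPM in resistant and 15.5 and 15.3 CPM in parental cultures, and Irf9 by 0.67 (SE 0.09). Bst2, which tethers virus particles, rose by 1.89 (SE 0.09), and Xaf1, Rtp4 and Ifi44 by 4.27 (SE 0.12), 4.43 (SE 0.20) and 5.53 (SE 0.26). Mx1 was under 1 CPM in all 4 libraries.

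The list of nucleic acid sensors and interferons also holds genes such as Mavs and Tlr2. Of its 29 genes 27 had rows in the counts and 18 were tested, 13 higher and 3 lower. Ddx58, the gene of RIG-I, which senses viral RNA, was at 76.6 and 78.9 CPM in resistant cultures, against 13.2 and 12.7 CPM in parental cultures, and Ifih1, which encodes MDA5, rose by 2.29 (SE 0.12). Cgas, the sensor of DNA in the cytosol, rose by 1.63 (SE 0.18), while Mavs, the adaptor of the RNA sensors, fell by 0.49 (SE 0.06). Tlr2, a receptor for bacterial lipoproteins, was at 44.1 and 42.3 CPM in resistant and 2.26 and 2.08 CPM in parental cultures. Ifnb1, the interferon beta gene, had 0 and 0.0127 CPM in resistant cultures and no count in parental cultures, a level too low to compare at this depth, while the receptor genes Ifnar1 and Ifnar2 rose by 0.64 (SE 0.08) and 1.14 (SE 0.14).

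Genes of antigen presentation by MHC class I were mostly higher. Of 18 tested genes 14 were higher and 4 lower, with 4 of the 18 under 1 CPM in both parental and 2 in both resistant libraries. B2m, the light chain, rose by 0.84 (SE 0.06), Tap1, a subunit of the peptide pump, was at 5.46 and 4.34 CPM in resistant cultures, against 0.175 and 0.332 CPM in parental cultures, and Tapbp, which loads peptides, rose by 1.81 (SE 0.06). The immunoproteasome subunits Psmb8 and Psmb10 rose by 5.59 (SE 0.35) and 1.69 (SE 0.12). The heavy chain genes H2-K1 and H2-D1 fell by 0.58 (SE 0.08) and 0.76 (SE 0.06), though reads can be split among similar class I genes and these values are uncertain. Nlrc5, the transactivator of class I genes, was lower by 1.08 (SE 0.25) at 0.750 and 0.611 CPM in resistant and 1.28 and 1.58 CPM in parental cultures, a call lost without resistant replicate 2, at -0.93, and the gene fails the filter without either parental library. In the class II list 3 of 8 genes were tested, and Cd74, the invariant chain, was at 6.13 and 6.08 CPM in resistant and 0.351 and 0.252 CPM in parental cultures, with Ciita, H2-Aa and H2-Ab1 near 0 in all 4 libraries. Cd274, which encodes the checkpoint ligand PD-L1, did not pass the test, at 1.95 and 2.01 CPM in resistant and 1.79 and 1.53 CPM in parental cultures, while Vtcn1, which encodes B7-H4, was at 12.2 and 10.7 CPM in resistant and 0.684 and 0.676 CPM in parental cultures and Lgals9, which encodes galectin 9, rose by 2.13 (SE 0.15). Pvr, a ligand of TIGIT, fell by 1.75 (SE 0.07).

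Chemokines and cytokines were higher in 15 and lower in 7 of 23 tested cases of 30, with 3 of the 23 under 1 CPM in both resistant and 5 in both parental libraries. Cxcl12, which draws cells that carry CXCR4, was at 848 and 696 CPM in resistant cultures, against 0.947 and 0.875 CPM in parental cultures, and Cxcl15, a chemokine of mouse lung, at 168 and 121 CPM in resistant cultures, against 0.158 and 0.119 CPM in parental cultures. Il6, an inflammatory cytokine, was at 11.7 and 12.1 CPM in resistant cultures, against 0.211 and 0.119 CPM in parental cultures, Il33, an alarm signal of barrier tissue, at 254 and 237 CPM in resistant cultures, against 7.14 and 6.80 CPM in parental cultures, and Ccl2, which recruits monocytes, at 166 and 227 CPM in resistant cultures, against 10.0 and 9.14 CPM in parental cultures. Cxcl5 and Ccl20 rose by 4.61 (SE 0.08) and 3.09 (SE 0.11). Csf2, which encodes GM-CSF, fell by 3.12 (SE 0.11), with 4.65 and 3.97 CPM in resistant and 37.0 and 38.0 CPM in parental cultures. Complement genes, 9 of 13 tested, were higher in 7 cases and lower in none, with 4 of the 9 under 1 CPM in both parental libraries. C3, the central component, was at 1363 and 1468 CPM in resistant cultures, against 9.51 and 9.63 CPM in parental cultures. C1s1 and C1ra, whose products start the cascade, rose by 7.13 (SE 0.30) and 6.11 (SE 0.32), and both have close copies among which reads can be split.

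**Figure D3:**
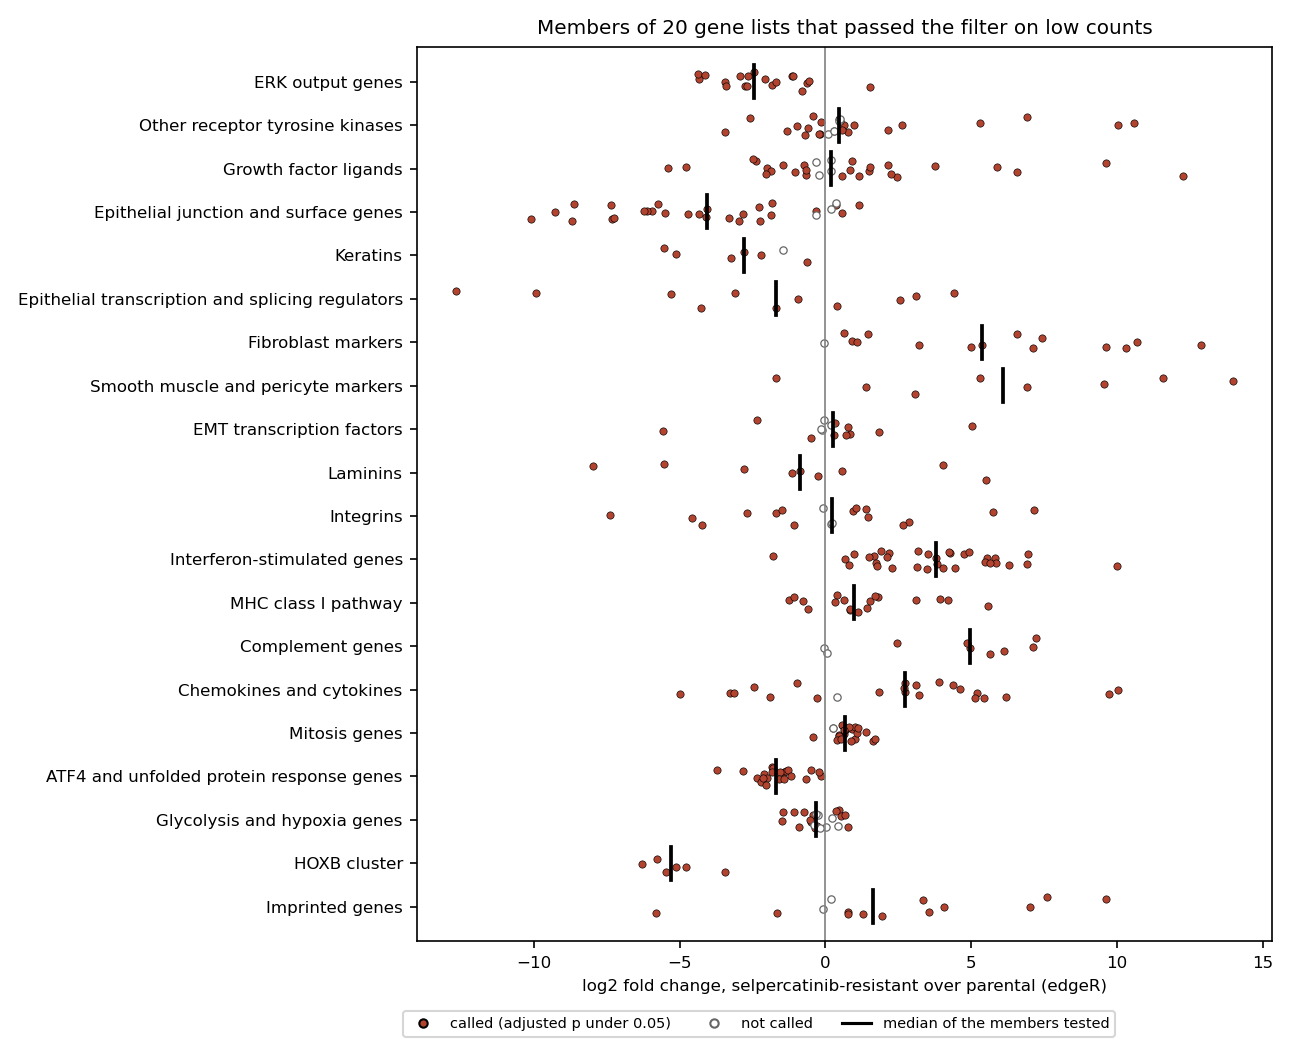
Log2 fold change, selpercatinib-resistant over parental, of each tested member of 20 gene lists (1 row per list, 1 point per gene, filled where called at an adjusted p under 0.05 and open where not, vertical offset only to separate points), with a bar at each list's median. The ERK output, epithelial junction, ATF4 and HOXB lists lie mostly left of 0 (for HOXB as the filter fixes), the fibroblast, interferon-stimulated and complement lists mostly right of it, and receptors, ligands, integrins and regulators spread to both sides.

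Cell cycle genes were higher in the resistant cultures. Of 23 mitosis genes, all tested, 21 were higher and 1 lower with a median of 0.66, and of 23 replication genes 15 were higher and 2 lower with a median of 0.50. Mki67, the proliferation marker, was at 315 and 382 CPM in resistant cultures, against 186 and 163 CPM in parental cultures. Ccna2, which encodes cyclin A2, rose by 1.62 (SE 0.12) and Ccne1, which encodes cyclin E1, by 1.68 (SE 0.12), and Mcm5, part of the replicative helicase, by 1.05 (SE 0.09). D cyclins and CDK inhibitors had 6 of 13 tested genes higher and 5 lower, near the shares over all genes (35.2 and 34.4%). Ccnd1 fell, as given among the ERK output genes, while Ccnd3 rose by 0.94 (SE 0.08) and Ccnd2 by 0.40 (SE 0.07). Cdkn1a, which encodes the CDK inhibitor p21, was at 3.24 and 3.45 CPM in resistant cultures, against 49.0 and 48.7 CPM in parental cultures. Cdkn1b, which encodes p27, rose by 0.79 (SE 0.07), Cdkn2c rose by 1.88 (SE 0.10) and Cdkn2b fell by 0.98 (SE 0.05). Cdkn2a was at 411 and 411 CPM in resistant and 462 and 476 CPM in parental cultures, and its call is lost without any 1 of the 4 libraries, at -0.18 to -0.23.

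The p53 pathway had 6 of 16 tested genes higher and 7 lower, near the shares over all genes (35.2 and 34.4%). Trp53 did not pass the test, at 7.48 and 8.42 CPM in resistant and 8.54 and 7.57 CPM in parental cultures. Mdm2, its inhibitor and target, fell by 0.58 (SE 0.06) and Bbc3, which encodes the death protein PUMA, by 1.34 (SE 0.11), whereas Fas, a death receptor, was at 58.4 and 54.0 CPM in resistant cultures, against 0.421 and 0.557 CPM in parental cultures. In the BCL2 family 4 of 12 tested genes were higher and 5 lower, again near those shares. The survival genes Bcl2, Bcl2l1 and Bcl2l2 fell by 1.13 (SE 0.06), 1.57 (SE 0.11) and 0.90 (SE 0.08), and Mcl1 did not pass the test, at 268 and 251 CPM in resistant and 259 and 255 CPM in parental cultures. Among the killers of the family, Bmf rose by 1.37 (SE 0.12), Bid by 0.81 (SE 0.07), and Bcl2l11, which encodes BIM, was lower by 0.33 (SE 0.07), a call lost without resistant replicate 1, at -0.26. The named survival genes other than Mcl1 were lower, and the BH3-only genes moved both ways.

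Stress genes of the ATF4 pathway, which answers lack of amino acids and misfolded protein, fell without exception. All 22 genes were tested and all 22 were lower, 18 of them at least 2-fold, with a median of -1.70. Atf4 itself was at 262 and 261 CPM in resistant cultures, against 711 and 703 CPM in parental cultures. Asns, which encodes asparagine synthetase, fell by 2.20 (SE 0.08), Phgdh, of serine synthesis, by 1.55 (SE 0.06), and Trib3, a pseudokinase induced by stress, was at 14.3 and 14.4 CPM in resistant cultures, against 179 and 199 CPM in parental cultures. The number at least 2-fold lower was 18 also with RLE scaling, with library totals alone, with DESeq2 and in the fit to 4 libraries.

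Other metabolic lists moved both ways. Of 23 tested glycolysis and hypoxia genes 5 were higher and 11 lower, with the glucose transporter Slc2a1 and hexokinase 2, Hk2, lower by 1.07 (SE 0.10) and 0.91 (SE 0.06) and Tpi1 higher by 0.78 (SE 0.12). In cholesterol and fatty acid synthesis 6 of 23 were higher and 10 lower, near the shares over all genes (35.2 and 34.4%). Among 17 tested NRF2 and glutathione genes 9 rose and 4 fell. Gclm and Gclc, which make glutathione, rose by 1.84 (SE 0.08) and 1.17 (SE 0.08), Gstm2, a glutathione transferase with close copies, rose by 3.48 (SE 0.13), and Nqo1 did not pass the filter.

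Genes of drug transport and metabolism were higher in 7 (background 35.2%) and lower in 8 (background 34.4%) of 17 tested cases. The efflux pump genes Abcb1a and Abcb1b, the mouse P-glycoproteins, fell, Abcb1a to 5.98 and 6.77 CPM in resistant cultures, against 58.7 and 61.7 CPM in parental cultures, and Abcb1b by 1.78 (SE 0.11). Abcg2, another efflux pump, rose by 1.76 (SE 0.14), with 38.1 and 35.3 CPM in resistant and 9.89 and 11.8 CPM in parental cultures. The aldehyde dehydrogenase genes moved apart, with Aldh1a1 at 45.1 and 39.8 CPM in resistant cultures, against 0.860 and 1.06 CPM in parental cultures and Aldh1a3 at 0.825 and 1.07 CPM in resistant cultures, against 89.4 and 84.9 CPM in parental cultures. Cyp1b1, a cytochrome P450, rose by 3.86 (SE 0.07).

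As a sign of RNA quality, mitochondrially encoded transcripts were set beside these results. All 13 were higher, none of them 2-fold, with a median of 0.42 and summed levels of 23407 and 23018 CPM in resistant cultures, against 17465 and 18433 CPM in parental cultures. Their part in the other results was not tested. The Y-linked genes Ddx3y, Kdm5d, Uty and Eif2s3y fell by 1.05 (SE 0.12), 0.92 (SE 0.13), 1.01 (SE 0.16) and 0.98 (SE 0.18), with Ddx3y at 37.2 and 28.9 CPM in resistant and 67.7 and 69.2 CPM in parental cultures, and Xist was near 0 in all 4 libraries, so that both groups read Y-linked genes and nearly no Xist.

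Imprinted genes, which are expressed from a single parental copy, were mostly higher. Of 17 imprinted genes 14 were tested, 10 higher and 2 lower, with 4 of the 14 under 1 CPM in both parental libraries. Peg10, a gene of retroviral origin expressed from the paternal copy, was at 251 and 255 CPM in resistant cultures, against 2.05 and 1.87 CPM in parental cultures, and its neighbour Sgce rose by 3.34 (SE 0.14). H19, a noncoding RNA expressed from the maternal copy, was at 20.2 and 15.2 CPM in resistant cultures, against 0.0526 and 0.119 CPM in parental cultures, and Igf2, its paternal neighbour, rose with it, as given among the ligands. Meg3 and Dlk1, at another imprinted locus, did not pass the test, with Dlk1 at 19.8 and 14.2 CPM in resistant and 18.8 and 17.5 CPM in parental cultures. Phlda2 fell by 5.82 (SE 0.16). Of the HOX clusters, which record position along the body, few genes passed the filter. In the HOXA cluster 5 of 11 genes were tested and 4 were higher, with Hoxa3 at 8.35 and 8.04 CPM in resistant and 1.89 and 1.68 CPM in parental cultures. But 3 of the 5 were under 1 CPM in both parental libraries, and the filter favours a rise in such genes. In the HOXB cluster 6 of 10 were tested. All 6 were under 1 CPM in both resistant libraries and passed through other libraries, so that their lower values follow from the filter, with Hoxb6 at 0.195 and 0.216 CPM in resistant and 7.81 and 6.83 CPM in parental cultures and Hoxb8 lower by 6.28 (SE 0.71). No gene of the HOXC or HOXD cluster passed the filter.

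Fold changes were not spread evenly over the chromosomes. Median log2 fold changes lay between -0.10 and 0.14 on the 15 chromosomes other than 6, 12, 14, 16, 18 and the mitochondrial genome. On chromosome 12 the median was -0.47, with 59.0% of 510 tested genes lower and 15.7% higher. Both resistant libraries showed it, at medians of -0.41 and -0.44 against the parental mean on the log2(CPM + 1) scale. The pralsetinib-resistant libraries showed it as well, at -0.43 and -0.53 on that scale. Of its 10-megabase windows with at least 10 tested genes, 12 of 12 had a median under 0. Chromosomes 14 and 16 had medians of -0.35 and -0.35, with 11 of 12 and 10 of 10 windows under 0. Chromosome 18 had a median of 0.36, with 56.2% of 404 genes higher and 0 of 9 windows under 0, and chromosome 6, which carries Ret and Trim24, had 0.25, with 1 of 15 windows under 0. On the log2(CPM + 1) scale the pralsetinib-resistant medians were -0.30 and -0.32 on chromosome 14 and -0.33 and -0.36 on chromosome 16. They were 0.24 and 0.29 on chromosome 18 and 0.20 and 0.19 on chromosome 6, so these shifts are shared by both resistant groups. Scaling by library totals left the median of chromosome 12 at -0.32. Copy number was not measured, and its part in these shifts was not tested.

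**Figure D4:**
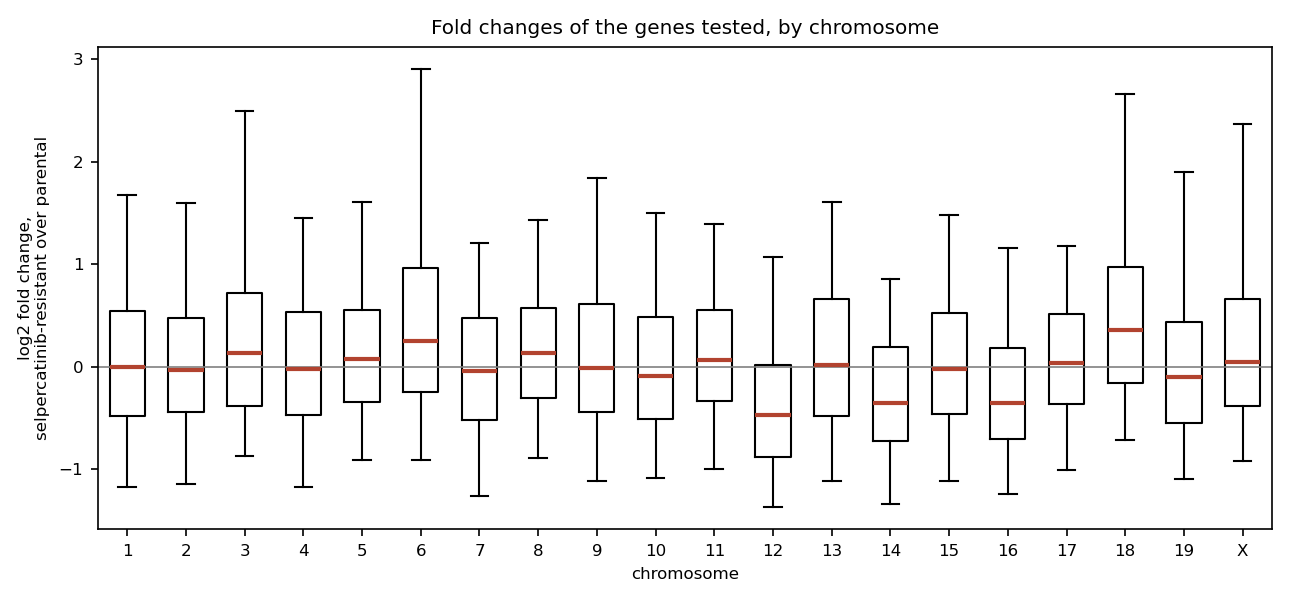
Log2 fold changes, selpercatinib-resistant over parental, of the genes tested on each autosome and the X chromosome, with boxes from the first to the third quartile, a bar at the median and whiskers to the 10th and 90th percentiles. The boxes of chromosomes 12, 14 and 16 sit lower and those of chromosomes 6 and 18 higher than the others.

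The largest single changes, by fold, named other genes than the lists. Among the 15 largest rises at a mean of 5 CPM or more, 5 genes had no count in parental cultures beside Myl9. Kank4, which regulates the actin skeleton, was at 36.9 and 34.9 CPM in resistant cultures, at least 1583-fold higher, and Tmem178, a membrane protein of the endoplasmic reticulum, at 21.6 and 18.1 CPM, at least 869-fold higher. Dchs2, a large cadherin, Havcr1, which encodes the kidney injury molecule KIM-1, and Rerg, a RAS-like growth inhibitor, were at least 549-fold, 537-fold and 507-fold higher. Sult1c2, a sulfotransferase, was at 69.8 and 71.3 CPM with 3 parental counts, and Sorcs1, a sorting receptor of the VPS10 family, was at 127 and 140.1 CPM in resistant cultures, against 0.0526 and 0.0531 CPM in parental cultures. Ptx3, which encodes a soluble pattern receptor, was at 39.6 and 31.2 CPM with 2 parental counts, and Islr and Fam13c were at 41.3 and 29.5 CPM and at 25.7 and 21.6 CPM with 1 parental count each. Fmod, Dcn, Sfrp2, Acta2 and Myl9, the others of the 15, are given above.

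Among the 15 largest falls were transporters and channels. Slc14a1, which encodes a urea transporter, had 1 count over both resistant libraries and 85.7 and 92.8 CPM in parental cultures. Aqp8, a water channel, had none, against 46.6 and 49.8 CPM in parental cultures, at least 2346-fold lower, and Kcnk1, a potassium channel, was at 0.0450 and 0 CPM in resistant and 14.9 and 16.2 CPM in parental cultures. Cwh43, of lipid anchor remodelling, had no count in resistant cultures, against 23.5 and 25.0 CPM in parental cultures, at least 1182-fold lower. Several encode secreted or surface products. Csn3, a milk casein, was at 0 and 0.0382 CPM in resistant and 39.0 and 40.7 CPM in parental cultures. Il24, a cytokine, was at 0 and 0.0254 CPM in resistant and 11.7 and 14.3 CPM in parental cultures. Tmprss11e, a surface protease, was at 0.0450 and 0 CPM in resistant and 56.2 and 63.6 CPM in parental cultures, and Nptx1, a neuronal pentraxin, at 0.105 and 0.153 CPM in resistant and 107 and 103 CPM in parental cultures. Others encode proteins of the cell interior or membrane. Tns4, an adaptor at focal adhesions, was at 0.210 and 0.114 CPM in resistant and 152 and 147 CPM in parental cultures, Ppp2r2c, a phosphatase subunit, at 0.0750 and 0.114 CPM in resistant and 66.6 and 68.6 CPM in parental cultures, Dynap at 0.0750 and 0.140 CPM in resistant and 62.2 and 69.6 CPM in parental cultures and Tmem132c at 0 and 0.0254 CPM in resistant and 13.0 and 14.8 CPM in parental cultures. The remaining 3 were Esrp1, Wnt7a and Ap1m2.

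The 10 largest differences in CPM in each direction, a choice that depends on gene length and so gives no order between genes, fell on abundant genes. Sprr1a, a squamous envelope gene, was at 2723 and 2685 CPM in resistant cultures, against 125 and 136 CPM in parental cultures, and C3, Cxcl5, mt-Cytb, Col1a1, Actb, Lcn2, Col6a1, Sparc and Tmsb10 were the other gains. Of these Actb, the cytoplasmic actin gene often used as a control, rose by 0.30 (SE 0.06) and Tmsb10, which binds actin monomers, by 0.89 (SE 0.09). Among the 10 losses were genes of translation. Eef1a1, an elongation factor, was at 8569 and 8463 CPM in resistant cultures, against 11756 and 12671 CPM in parental cultures, Eef2 fell by 0.98 (SE 0.06), Pabpc1, which binds poly(A) tails, by 1.00 (SE 0.06) and Tpt1 by 1.50 (SE 0.09). Hmga1, a chromatin protein of proliferating and embryonic cells, was at 133 and 139.7 CPM in resistant cultures, against 1952 and 2087 CPM in parental cultures. Clu, which encodes the chaperone clusterin, fell by 1.23 (SE 0.29), Igfbp4, which binds insulin-like growth factors, by 2.73 (SE 0.30) and Hsp90ab1, a chaperone, by 0.73 (SE 0.05). Krt8 and Krt18 were the others.

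The 2 resistant libraries were close but not identical, and the spread of their counts exceeded sampling noise. The chi-square divided by its degrees of freedom was 11.8 in the resistant and 6.45 in the parental pair. At a mean of 5 CPM or more, the 8 genes most in favour of replicate 1 began with Peg3, an imprinted zinc finger gene, at 19.6 and 8.04 CPM in the resistant libraries and 1.16 and 1.18 CPM in the parental libraries. Hpgd, which breaks down prostaglandins, was at 7.83 and 4.21 CPM in the resistant libraries, Stmn2 at 14.0 and 8.90 CPM, Trim30a at 7.65 and 4.81 CPM, Serpinf1 at 16.8 and 11.0 CPM and Pappa2 at 88.1 and 61.1 CPM. Ppef1 and Clic6 completed the set and did not pass the test between groups. The 8 genes in favour of replicate 2 held Mir6236 at 52.4 and 109 CPM, Lars2 at 113 and 202 CPM and mt-Rnr1, a mitochondrial ribosomal RNA, at 125 and 212 CPM in the resistant libraries. The calls of Mir6236 and Lars2 against parental cultures are lost without resistant replicate 2, at 0.58 and 0.32, and without either parental library, while mt-Rnr1 did not pass the test. Havcr1 was at 7.81 and 15.9 CPM, Postn at 66.7 and 113 CPM, Mmp9 at 6.90 and 12.2 CPM, Lef1, a Wnt effector, at 3.40 and 6.60 CPM, and Apob at 5.73 and 11.5 CPM. Lef1 and Apob lay below their parental levels in both resistant libraries, and Lef1 loses its call without resistant replicate 1, at -0.64, and without either parental library. Apob and Mmp9 did not pass the test between groups.

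Set against the pralsetinib-resistant cultures, the selpercatinib-resistant cultures differed in far fewer genes. edgeR called 1523 of 14389 genes (10.6%), 929 higher (6.46%) and 594 lower (4.13%), and 256 were at least 2-fold higher (1.78%) and 126 at least 2-fold lower (0.876%), together 2.65%. The count depends on the libraries in the fit. It was 8 without selpercatinib-resistant replicate 1 (8 higher and 0 lower, with 1960 genes at an unadjusted p under 0.05 in edgeR), 118 (93 higher and 25 lower) without replicate 2, 4443 and 3879 on leaving out 1 pralsetinib-resistant library, and 568 in a fit to the 4 resistant libraries. The pralsetinib-resistant libraries also differ in labelled dose, with 1 library each. Between 6.07 and 7.53% of counts separate a selpercatinib- from a pralsetinib-resistant library.

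Interferon-stimulated genes were higher than in pralsetinib-resistant cultures in 21 of 33 tested cases and lower in none, at a median of 1.49 (background 6.46% higher and 4.13% lower). Without selpercatinib-resistant replicate 1 there were 3 higher of 29 tested, namely Ifit1, Ifi44 and Isg15, and without replicate 2 there were 12 higher of 29. Ifit1 was at 18.5 and 16.3 CPM in selpercatinib-resistant and 2.96 and 2.44 CPM in pralsetinib-resistant cultures, a log2 difference of 2.69 (SE 0.16). Ifi44 was at 12.6 and 9.87 CPM in selpercatinib-resistant and 1.04 and 0.747 CPM in pralsetinib-resistant cultures, Isg15 at 15.3 and 15.4 CPM in selpercatinib-resistant and 3.22 and 2.70 CPM in pralsetinib-resistant cultures and Oas1a at 2.34 and 1.32 CPM in selpercatinib-resistant and 0.0282 and 0.0138 CPM in pralsetinib-resistant cultures. Usp18, which removes ISG15 from proteins, was at 5.07 and 4.38 CPM in selpercatinib-resistant and 0.774 and 0.526 CPM in pralsetinib-resistant cultures, against 2.53 and 2.24 CPM in parental cultures, so that the pralsetinib-resistant level lay below the parental one. Ifit2 and Stat2 did not pass the test between the resistant groups, with Ifit2 at 25.1 and 21.6 CPM in selpercatinib-resistant and 20.8 and 19.7 CPM in pralsetinib-resistant cultures. Dhx58, a relative of RIG-I that regulates it, was higher by 2.10 (SE 0.22). Usp18 loses its call without selpercatinib-resistant replicate 1, at 2.75, and Oas1a and Dhx58 fail the filter without either selpercatinib-resistant library.

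Matrix and receptor genes differed as well. Fibroblast markers were higher than in pralsetinib-resistant cultures in 9 of 15 cases (background 6.46%) and lower in 1 (background 4.13%), but in 0 and 1 cases higher without selpercatinib-resistant replicate 1 and 2. Col1a1 was at 1415 and 1252 CPM in selpercatinib-resistant and 717 and 315 CPM in pralsetinib-resistant cultures, a difference of 1.37 (SE 0.32), while Col1a2 was at 46.3 and 51.8 CPM in selpercatinib-resistant and 127 and 256 CPM in pralsetinib-resistant cultures, lower by 1.97 (SE 0.30). Both pralsetinib-resistant libraries thus had less Col1a1 and more Col1a2. Fgfr2 and Fgfr3 were lower by 0.77 (SE 0.10) and 1.20 (SE 0.13), with Fgfr2 at 106 and 108 CPM in selpercatinib-resistant and 163 and 203 CPM in pralsetinib-resistant cultures. Hgf and Il6 were higher by 1.82 (SE 0.16) and 1.82 (SE 0.16), and Igf1, at 8.02 and 7.87 CPM in selpercatinib-resistant and 19.6 and 35.3 CPM in pralsetinib-resistant cultures, was lower. Glycolysis and hypoxia genes were higher in 12 of 23 cases and lower in none, with Ldha at 974 and 1013 CPM in selpercatinib-resistant and 711 and 565 CPM in pralsetinib-resistant cultures, and mitochondrially encoded transcripts were lower in 8 of 13. Without selpercatinib-resistant replicate 1 none of either list is called, and without replicate 2 there are 2 glycolysis and hypoxia genes called higher and no mitochondrial transcript called. The calls of Col1a1, Col1a2, Fgfr2, Fgfr3, Igf1 and Ldha are lost without either selpercatinib-resistant library, at 1.28 and 1.46 for Col1a1, -1.89 and -2.05 for Col1a2, -0.76 and -0.78 for Fgfr2, -1.19 and -1.20 for Fgfr3, -1.80 and -1.77 for Igf1 and 0.67 and 0.61 for Ldha. Those of Hgf and Il6 are lost without replicate 1, at 1.75 and 1.85. In the fit to the 4 resistant libraries, 4 of 15 fibroblast markers and 4 of 23 glycolysis and hypoxia genes are called higher. There 1 fibroblast marker and 6 of 13 mitochondrial transcripts are called lower, and Col1a1 is not called, at 1.37. Ret did not differ past the threshold, at 35.0 and 33.1 CPM in selpercatinib-resistant and 41.0 and 34.5 CPM in pralsetinib-resistant cultures and an edgeR adjusted p of 0.363.

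The 5 largest rises and falls between the resistant groups are given by rule. Besides Ifi44 and Ifit1, the rises were Prss22, a serine protease, at 20.8 and 20.5 CPM in selpercatinib-resistant and 5.21 and 2.15 CPM in pralsetinib-resistant cultures, Has2, which makes hyaluronan, at 15.3 and 16.0 CPM in selpercatinib-resistant and 3.52 and 2.21 CPM in pralsetinib-resistant cultures, and Tgfbi, a matrix protein, at 21.8 and 19.2 CPM in selpercatinib-resistant and 4.48 and 3.39 CPM in pralsetinib-resistant cultures. In parental cultures these 3 were at 295 and 292 CPM, 39.2 and 39.8 CPM and 21.2 and 21.2 CPM, above the pralsetinib-resistant levels in each case. Among the falls, Nts, which encodes the peptide neurotensin, was at 14.6 and 23.7 CPM in selpercatinib-resistant and 73.6 and 293 CPM in pralsetinib-resistant cultures. Cd36, a fatty acid transporter, was at 6.73 and 9.54 CPM in selpercatinib-resistant and 29.6 and 72.4 CPM in pralsetinib-resistant cultures, and Pou3f1, a POU factor, at 5.86 and 9.09 CPM in selpercatinib-resistant and 20.8 and 60.1 CPM in pralsetinib-resistant cultures. In each of these the pralsetinib-resistant library labelled 400 nM was the highest of the 4. Icosl, a ligand of T cells, was at 2.80 and 4.55 CPM in selpercatinib-resistant and 10.8 and 24.0 CPM in pralsetinib-resistant cultures, and Ccdc141 at 3.16 and 5.47 CPM in selpercatinib-resistant and 9.11 and 28.6 CPM in pralsetinib-resistant cultures, with the same order. In all 5 the pralsetinib-resistant libraries differ from each other by at least 2-fold, and the calls are lost without selpercatinib-resistant replicate 1 or without replicate 2. The fitted change without replicate 1 and without replicate 2 was -2.95 and -3.65 for Nts, -2.42 and -2.92 for Cd36, -2.15 and -2.78 for Pou3f1, -1.93 and -2.63 for Icosl and -1.79 and -2.57 for Ccdc141. In the fit to the 4 resistant libraries Nts, Pou3f1, Icosl and Ccdc141 are not called, at -3.25, -2.43, -2.24 and -2.12. Prss22 loses its call without selpercatinib-resistant replicate 1, at 2.48.

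**Figure D5:**
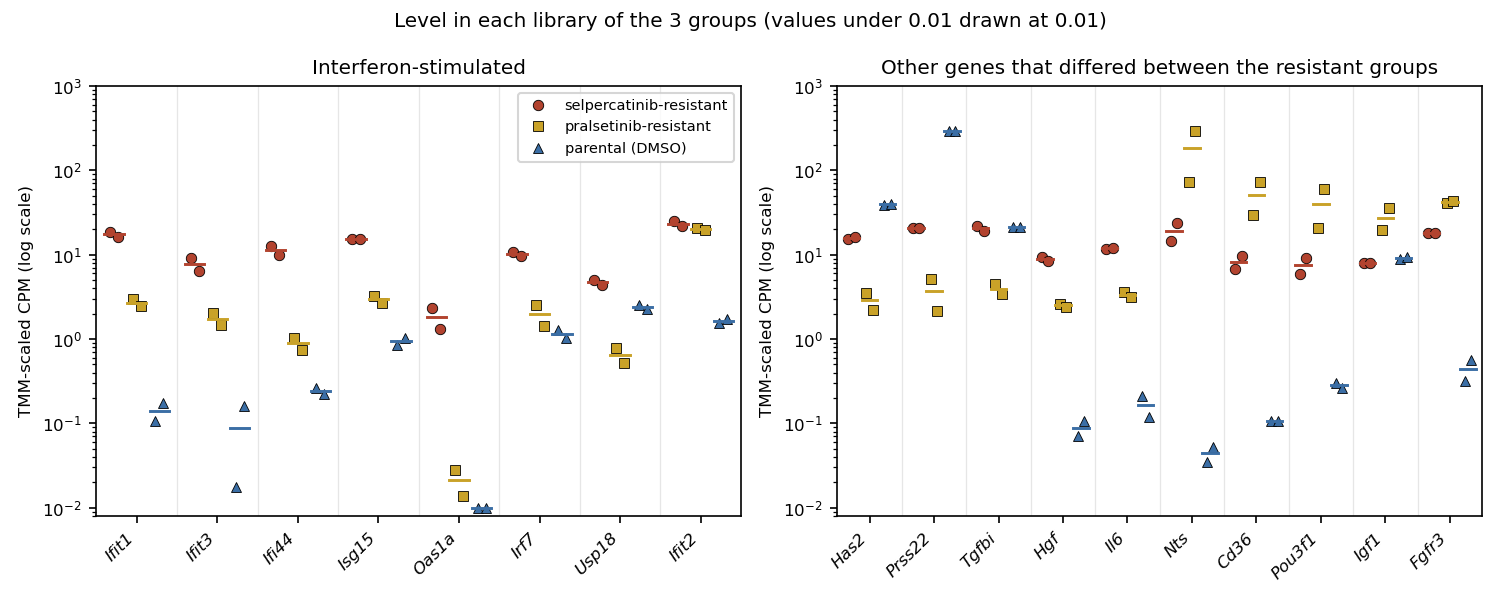
Level in each library as TMM-scaled CPM on a log scale of 8 interferon-stimulated genes (left) and 10 other genes (right), with the selpercatinib-resistant libraries (circles), pralsetinib-resistant libraries (squares) and parental libraries (triangles) from left to right for each gene and bars at group means. Ifit1, Ifi44, Isg15, Oas1a and Usp18 are highest in the selpercatinib-resistant libraries, Ifit2 did not pass the test between the resistant groups, and Nts, Cd36, Pou3f1 and Igf1 are highest in the pralsetinib-resistant libraries.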

How the data were processed

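The authors deposited whole-number counts of reads per gene, although the table carries a CPM name. FastQC, STAR, edgeR and the build mm10 are named, without versions or roles, per the submitters' processing notes. Per the labels' protocols, libraries were made with a stranded mRNA kit. No counting tool or strand setting is given in the sources used here, so overlapping genes and close copies are uncertain. Of 55415 rows, 55391 were matched to gene symbols, 8921 of them after changing letter case, and 24 rows carry numbers in place of a name (0.185 to 0.215% of counts). The 19 of these that passed the filter stayed in the fit and are not named.

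From these counts, TMM scaling and the quasi-likelihood test of edgeR 4.0.16 (R 4.3.3) were run on 6 libraries in 3 groups, for 14389 genes with a CPM of 1 or more in at least 2 libraries. Tests were two-sided, with Benjamini-Hochberg adjustment over all genes tested and a threshold of 0.05. Alternatives used limma 3.58.1, DESeq2 1.42.0, other scalings, filters and sets of libraries. Promoter letters came from RefSeq tables and figures from matplotlib 3.10.9. Intervals and floors of 3 counts cover counting error only.

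The members and the 56 gene lists were chosen with earlier results of these data known. Genes named are the marked members of each list, up to 4 further members with the lowest p, the 15 largest rises and falls and the 10 largest gains and losses in CPM, and the genes that differ most between the resistant groups (5 each way) and between the resistant libraries (8 each way). Changes were at a mean of 5 CPM or more. Of 541 named genes, those with values that matter here are given, and some are not reported here. On simulated counts with 200 changed genes per comparison, the test against parental cultures recovered 82.1% of genes changed 1.5-fold and 100% of those changed 2-fold. Against pralsetinib-resistant cultures these were 71.6% and 98.5%. The changed genes were all at a mean of 5 CPM or more and moved in both directions. With so few of them, the simulation cannot test the scaling where most genes move, as here, nor the recovery of low genes.

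Setting genes with no count in a group at their bound moved no median of a list. No list held more than 1 such tested gene, and a single extreme member can hardly move a median, so this check decides little. Library depth was 60.7e6 to 81.9e6 counts. Resistant and parental libraries of the same number were not paired, as the labels state no design beyond the groups. Their deviations from the group means had a correlation of -0.0899. Only a pair of libraries per group enters that value, so it cannot show or exclude pairing.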

Additional observations from a re-analysis of the deposited data

How the results depend on the processing

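Of 541 named genes 497 were tested, 456 were called against parental cultures, and 427 of these were called under each alternative that could test them. No named gene turned its direction where it was called. Against parental cultures, genes at least 2-fold higher numbered 1452 with a filter of 5 CPM and 3515 with no filter, and genes at least 2-fold lower numbered 2403 with no filter. A fit to the 4 libraries compared, without the pralsetinib-resistant pair, called 11170 of 14145 genes. In that fit 11 named genes were called that are not called in the main fit. Leaving out 1 library at a time gave 7862 to 7972 called genes, and the replicate block, which pairs libraries by number only, gave 11027 called genes (5590 higher, 5437 lower).

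Against pralsetinib-resistant cultures the called genes numbered 568 in a fit to 4 libraries, 2371 with DESeq2 and 2745 with no filter, and leaving out 1 library at a time gave 8 to 4443. Genes at least 2-fold higher numbered 154 in the fit to 4 libraries, 157 with a filter of 5 CPM, 160 with limma on log2(CPM + 1), 426 with no filter and 8 to 564 on leaving out 1 library. Genes at least 2-fold lower numbered 75 in the fit to 4 libraries, 75 with a filter of 5 CPM, 67 with limma on log2(CPM + 1), 297 with no filter and 0 (without selpercatinib-resistant replicate 1) to 173 on leaving out 1 library. The cause was not tested, beyond the number of genes that enter with each filter. Genes at a few counts per library are known only within wide counting intervals.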
